A study of Mus musculus with 6 samples.

Results

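Transcript levels of 10 genes that receive the fibroblast growth factor (FGF) signal or restrain the ERK kinases downstream of it were followed in mouse embryonic stem cells treated with cycloheximide, an inhibitor of translation elongation. The genes were the receptors Fgfr1 and Fgfr2, the pathway inhibitors Spry2, Spry4 and Spred1, the dual-specificity phosphatases Dusp1, Dusp4 and Dusp6, and the ETS-family transcription factors Etv4 and Etv5. They were taken by symbol from the 17485 gene rows of the count files, and all 10 had a row and passed the filter on low counts. The 10 genes were chosen with earlier results of the same libraries known, and their levels and changes chose them in part. Their values below are therefore a description, and no p-value is given for them.

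The cells were E14 embryonic stem cells, an established pluripotent line of 129/Ola background, grown on gelatin in medium with serum and leukaemia inhibitory factor (LIF). All groups shared that culture, and treatment began 24 h after seeding. Treated cells had 250 µg/mL of cycloheximide, with 0.007% ethanol as its vehicle, in the medium for 3 h or 6 h. Controls had only ethanol, for 9 h, at a concentration that is not given for them. Controls and treated cells thus differed in hours of exposure to the vehicle as well as in the drug. Each of the 3 groups had 2 libraries of polyadenylated RNA, and since the labels do not say that the 2 came from separate cultures, the tests measure only the spread between these libraries, which may be technical.

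FGF4, secreted by embryonic stem cells, binds FGF receptors together with heparan sulphate. The receptors act through the adaptor FRS2, through GRB2 and SOS and through RAS, RAF and MEK to activate ERK, which enters the nucleus and drives immediate-early genes and the ETS factors ETV4 and ETV5. Sprouty and SPRED proteins restrain RAS and RAF activation, and the DUSP phosphatases remove the activating phosphates from ERK and related kinases. Many of these inhibitors are themselves transcribed in response to ERK, which makes them feedback genes. In stem cells grown with serum and LIF the pathway is known for priming cells to leave the naive pluripotent state, and in the early embryo FGF signalling is known for directing cells to primitive endoderm.

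Library totals ranged from 9385447 to 27351079 counts, and the 6 h libraries were the deepest. A count of 3 was used as the detection floor and covers counting error only. It equalled 0.110 to 0.320 CPM, counts scaled for library depth, when scaled by the library total alone. Levels below are CPM from library sizes corrected further, so a count of 3 can stand at another value there. All 12 embryonic stem cell markers reached the floor in every library, and their levels summed to 7362 and 7527 CPM for control, to 8316 and 8625 CPM for 3 h and to 6083 and 5916 CPM for 6 h. Sox2 had the highest mean level of the 12, at 2442, 3904 and 2358 CPM in control, at 3 h and at 6 h. The sums therefore follow Sox2 in part and do not give the course of each marker. Of 8 primitive endoderm markers, the highest of which was Lama1, 7 reached the floor in every library, with sums of 86.4 to 91.7 CPM in control, 89.0 to 92.9 at 3 h and 43.3 to 48.3 at 6 h. Of 7 fibroblast or feeder markers, 2 did, the sums were 3.07 to 10.1 CPM over all libraries, and Dcn was under the floor in each. Trophoblast markers (2 of 5 at the floor in every library) summed to 6.08 and 7.58 CPM for control, to 12.8 and 15.9 for 3 h and to 18.3 and 20.7 for 6 h. The highest of that list was Tfap2c, and these sums likewise do not give the course of each marker. Neuroectoderm markers (3 of 5) summed to 63.5 to 80.9, 99.0 to 123 and 75.3 to 87.8 CPM, mesendoderm markers (2 of 5) to 5.25 to 12.3 CPM over all libraries, and 2-cell-like markers (0 of 5) to at most 1.47 CPM. Of the fibroblast list 5 markers had a row in the files, of the trophoblast list 4 and of the 2-cell-like list 2, and those without a row are counted here as not reaching the floor. Mitochondrial counts made up 24.7% and 24.9% of the control libraries, 18.9% and 19.6% at 3 h and 16.6% and 17.4% at 6 h. The part of these shifts in the results below was not tested, and in bulk RNA fewer cells of a type and less RNA per cell cannot be told apart.

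The 10 genes did not move as a block. At 3 h the phosphatases Dusp1 and Dusp6 were higher than in control. By 6 h both Sprouty genes and both ETV factors were lower than in control, the receptor Fgfr2 and the phosphatase Dusp4 were higher, and Dusp1 and Dusp6 no longer passed the threshold. A gene was called changed at a Benjamini-Hochberg adjusted p under 0.05 over the 12755 genes tested together with edgeR's quasi-likelihood test. At 3 h against control 2 of the 10 were called higher and 0 lower, where 3.6% and 1.3% of all tested genes were called in those directions. At 6 h against control 2 were called higher and 4 lower, beside 14.8% and 14.3% of all tested genes. At 6 h against 3 h 0 were called higher and 4 lower, beside 0.455% and 1.18%. Because the genes were chosen on these contrasts, nothing is read from their share against that of all genes. The median log2 fold change over the 10 was 0.24 at 3 h and -0.34 at 6 h, and the medians over all tested genes were 0.02 and 0.04. Both comparisons with control used the same control libraries.

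**Figure D1:**
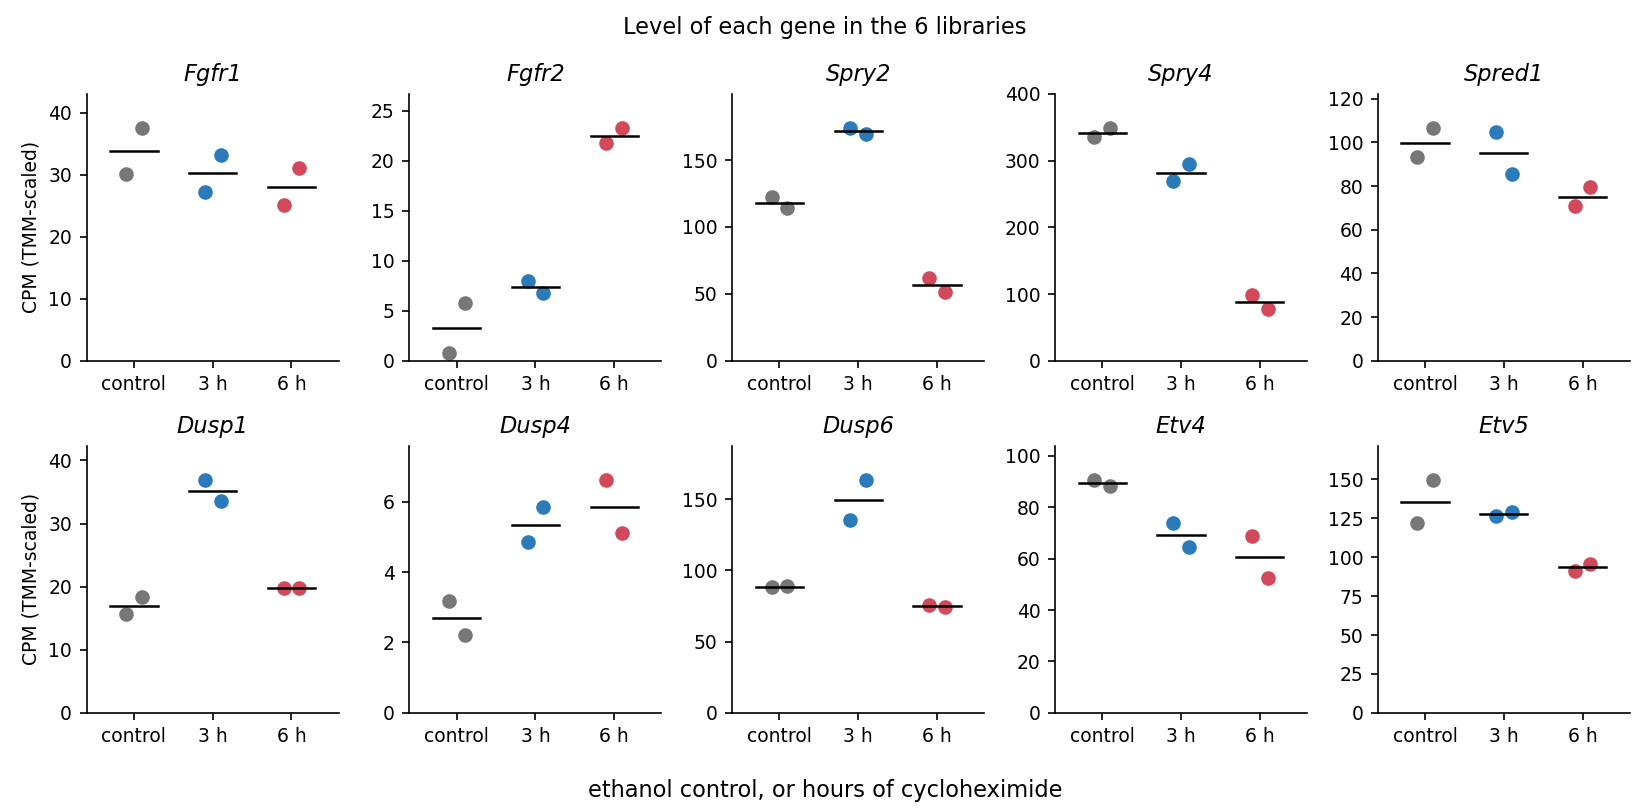
Level of each gene in CPM (scaled by trimmed mean of M values, y axis starting at 0 and set per gene) in each of the 6 libraries (points) with the mean of each group (line), for control and for 3 h and 6 h of cycloheximide. Dusp1 and Dusp6 stand highest at 3 h, Spry2 does so before falling under control at 6 h, and Fgfr2 stands highest at 6 h.

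The receptors took different courses. Fgfr1 (chr8:25513654-25575718, plus strand, GRCm38) encodes the main FGF receptor of embryonic stem cells. It was measured at 30.2 and 37.5 CPM in control, 27.3 and 33.2 CPM at 3 h and 25.1 and 31.1 CPM at 6 h. The 3 groups overlapped, and no comparison was called. Its log2 fold change against control was -0.16 ± 0.19 (SE) at 3 h and -0.26 ± 0.18 (SE) at 6 h, with 95% intervals from -0.58 to 0.27 and from -0.68 to 0.16, which span falls as well as rises. Both values turned positive, to 0.07 and 0.09, when libraries were scaled by their total alone. Exons of Fgfr1 in the GENCODE M21 annotation overlap those of Gm16159 on the opposite strand. Whether strand was used in counting is not given in the sources used here.

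Fgfr2 (chr7:130162451-133123350, minus strand) encodes the receptor that, in the early embryo, is known for marking cells of the primitive endoderm. Its level was 0.741 and 5.74 CPM in control, 7.95 and 6.76 CPM at 3 h and 21.8 and 23.2 CPM at 6 h, from 10 and 47, 123 and 117, and 660 and 606 counts. Every treated library stood above both control libraries, and both 6 h libraries stood above both 3 h libraries. The control libraries themselves differed more than those of the other groups, with a mean of 3.24 ± 3.54 CPM (SD, n = 2). The fitted log2 fold change at 6 h was 2.94 ± 0.60 (SE), a 7.69-fold higher level, and Fgfr2 was called higher. At 3 h it was 1.33 ± 0.62 (SE) and between 3 h and 6 h 1.61 ± 0.52 (SE), neither of which was called. The size of the change rested on the control libraries: without control replicate 1 the 6 h value was 1.97, and without control replicate 2 it was 4.92. The 3 h value moved to 0.35 and 3.30 in the same order and was called in the second case, and the 6 h call was lost without 6 h replicate 2 (2.87). The difference between 3 h and 6 h was called in 5 of 16 alternatives, at 1.61 to 1.62: with limma-voom, with no filter, with only the libraries compared and without either control library. With no filter the 3 h difference (1.33) was called as well. The span given above is that of the whole GENCODE M21 entry of Fgfr2, over all its annotated transcripts. Exons of that entry overlap those of Ctbp2 on the same strand. How the counts of shared reads were assigned is not given in the sources used here.

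The Sprouty genes fell furthest. Spry4 (chr18:38586247-38601415, minus strand) encodes an inhibitor that is a widely used transcriptional readout of FGF signalling in stem cells. It stood at 336 and 348 CPM in control, 269 and 295 CPM at 3 h and 98.8 and 76.9 CPM at 6 h. No library of one group overlapped another group, and the level was lower at each step. The difference at 3 h, -0.28 ± 0.14 (SE) on the log2 scale, was not called. At 6 h it was -1.96 ± 0.14 (SE), a 3.89-fold lower level, and the step from 3 h to 6 h was -1.68 ± 0.14 (SE). Spry4 was called lower in both of these comparisons.

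Spry2 (chr14:105891947-105896819, minus strand), an inhibitor of receptor tyrosine kinase signalling of the same family, passed through a higher level first. It was measured at 122 and 114 CPM in control, 174 and 170 CPM at 3 h and 62.0 and 51.4 CPM at 6 h. Both 3 h libraries were thus above, and both 6 h libraries below, the control libraries. The log2 fold change at 3 h, 0.54 ± 0.13 (SE), missed the threshold, although it was called with DESeq2 (0.52), with limma-voom (0.54), with library size alone (0.77), with no filter on low counts (0.54) and with a filter at 50 counts (0.55). At 6 h it was -1.06 ± 0.13 (SE) against control, 0.481 of the control level, and -1.60 ± 0.13 (SE) against 3 h, both called lower. The 6 h calls of Spry2 and Spry4, against control and against 3 h, were kept under all 16 alternatives, each of the 6 that left out a library included.

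Smaller differences were measured for Spred1 (chr2:117121374-117182279, plus strand), which encodes a membrane-bound protein that brings the RAS inhibitor neurofibromin to RAS. Its level was 93.1 and 106 CPM in control, 105 and 85.5 CPM at 3 h and 70.7 and 79.7 CPM at 6 h. One 3 h library lay between the controls and the other below both, and the 6 h libraries lay below both other groups. Fitted log2 fold changes were -0.07 ± 0.15 (SE) at 3 h, 0.16 with library size alone, and -0.41 ± 0.15 (SE) at 6 h. Spred1 was not called in any comparison, while DESeq2 and the fit with no filter called it lower at 6 h (-0.42 and -0.40).

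One of the inhibitors had an ETS core motif (CCGGAA, searched on both strands) in its RefSeq promoter window, which runs from 250 bases before to 50 bases after the annotated start (GRCm38.p6). Windows were found for 6 of the 10 genes, 7 windows in all since Etv5 has more than one. Fgfr1, Spry4, Dusp4 and Etv4 had no window, so their promoters were not searched for any motif. The motif of Spry2, at bases 34 to 39 after the start, is shown because ETS factors are the transcription factors of this pathway, and 14.9% of 32851 windows hold the same 6 letters. The stretch around it, chr14:105896770-105896798 on the minus strand with the motif in capitals, reads:
Spry2: aggtcatctatcCCGGAAtccgggagggt

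Among the phosphatases, Dusp1 and Dusp6 were highest at 3 h. Dusp1 (chr17:26505590-26562128, minus strand) encodes a nuclear phosphatase of ERK, JNK and p38 and is an immediate-early gene. Its level was 15.6 and 18.3 CPM in control, 36.8 and 33.6 CPM at 3 h and 19.7 and 19.9 CPM at 6 h. The 3 h libraries stood well above the other 4, and the 6 h libraries just above control. At 3 h the log2 fold change was 1.06 ± 0.16 (SE), a 2.08-fold higher level, and from 3 h to 6 h it was -0.83 ± 0.15 (SE); both were called. The second call was lost with library size alone (-0.70) and with the replicate block (-0.83). At 6 h it was 0.23 ± 0.16 (SE) against control, with a 95% interval from -0.14 to 0.59, and was not called, except with library size alone (0.58). In the GENCODE M21 annotation exons of Dusp1 overlap those of Ergic1 on the opposite strand, and reads of the 2 genes cannot be told apart if strand was not used in counting.

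Dusp6 (chr10:99263231-99267489, plus strand) encodes a cytoplasmic phosphatase that acts selectively on ERK. It was measured at 88.2 and 89.2 CPM in control, 135 and 163 CPM at 3 h and 76.0 and 74.3 CPM at 6 h. As with Spry2, the 3 h libraries lay above control and the 6 h libraries below it. The log2 fold change was 0.75 ± 0.13 (SE) at 3 h, a 1.68-fold higher level, and -0.99 ± 0.13 (SE) from 3 h to 6 h, both called. Against control the 6 h value was -0.24 ± 0.13 (SE), with a 95% interval from -0.53 to 0.05, not called and positive with library size alone (0.12). Leaving out either 3 h library ended the 3 h calls, at 0.99 and 1.12 for Dusp1 and 0.88 and 0.61 for Dusp6. The calls from 3 h to 6 h were lost when any one treated library was left out, at values from -0.90 to -0.76 for Dusp1 and from -1.11 to -0.85 for Dusp6. Each of those fits leaves 1 library in an arm, which is assumed to vary as the other groups do.

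Dusp4 (chr8:34807297-34819894, plus strand), a nuclear phosphatase of ERK, was counted far fewer times, with 43 and 18 counts for control, 75 and 101 for 3 h and 200 and 133 for 6 h. In CPM it stood at 3.19 and 2.20 without the drug, 4.85 and 5.84 after 3 h and 6.60 and 5.10 after 6 h. All 4 treated libraries were above both control libraries, and the 3 h and 6 h libraries overlapped. The log2 fold change was 0.96 ± 0.34 (SE) at 3 h, not called, and 1.09 ± 0.33 (SE) at 6 h, called. The 6 h call was lost without control replicate 2 (0.88), without either 3 h library (1.10 and 1.09), without either 6 h library (0.90 and 1.27), with limma-voom (1.06) and when only the libraries compared were fitted (1.10). From 3 h to 6 h the difference was 0.13 ± 0.30 (SE). Of the 3 phosphatases, the one called higher at 6 h was the one with the fewest counts.

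The Dusp1 window held a complete cyclic AMP response element (CRE, TGACGTCA, which is its own reverse complement), at positions -143 to -136 from the start. It was the 1 window of the 7 that did, and 1.79% of all windows hold it. That start is the one of the RefSeq window and lies inside the longer GENCODE span given above for Dusp1. The stretch is shown because Dusp1 had the largest called rise of the 10 at 3 h. It runs over chr17:26508552-26508671 (GRCm38.p6, minus strand), with the element in capitals:
Dusp1: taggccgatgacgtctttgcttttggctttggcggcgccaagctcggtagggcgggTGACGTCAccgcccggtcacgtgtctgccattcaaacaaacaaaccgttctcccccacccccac
None of the 7 windows held the AP-1 letters TGACTCA (5.2% of all windows), the sites TGAATGAA or TGAATGGA of the repressor CIC (2.47%) or the CArG box of serum response factor (1.63%), each searched on both strands. These matches are descriptions of letters in a window and are not evidence of binding.

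Both ETS factors were lower at 6 h. Etv4 (chr11:101769742-101785371, minus strand) and Etv5 (chr16:22381309-22439719, minus strand) encode PEA3-group activators that carry the ERK signal to FGF target genes. Etv4 was measured at 90.4 and 88.3 CPM in control, 74.0 and 64.7 CPM at 3 h and 68.8 and 52.3 CPM at 6 h. Every treated library of Etv4 was below both controls, and 3 h and 6 h overlapped. Etv5 stood at 122 and 149 CPM in control, 127 and 129 CPM at 3 h and 91.2 and 95.7 CPM at 6 h. Its 3 h libraries lay between the controls and its 6 h libraries lay below both. The log2 fold change at 6 h was -0.56 ± 0.16 (SE) for Etv4, 0.678 of the control level, and -0.54 ± 0.13 (SE) for Etv5, 0.689 of it, both called lower. At 3 h the values were -0.37 ± 0.16 (SE) and -0.08 ± 0.13 (SE), the latter turning to 0.14 with library size alone, and neither was called. The 6 h calls were lost with library size alone, at -0.21 for Etv4 and -0.18 for Etv5. The Etv4 call was also lost without either control library (-0.54 and -0.57) or without 6 h replicate 2 (-0.38), and that of Etv5 without control replicate 2 (-0.38) or without either 6 h library (-0.50 and -0.57).

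**Figure D2:**
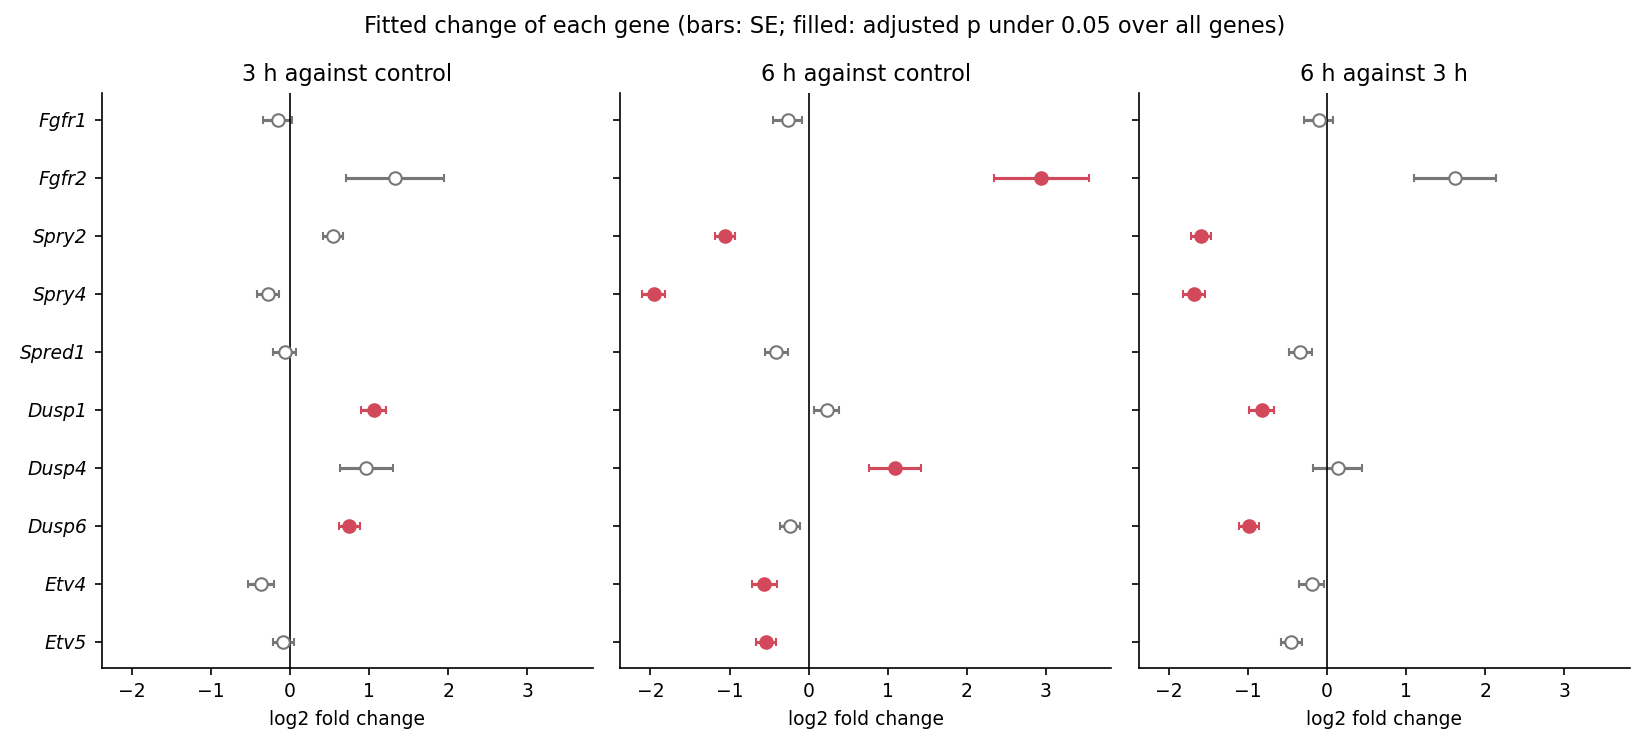
Fitted log2 fold change of each gene (x axis) with its standard error (bars) for 3 h and 6 h each against control and for 6 h against 3 h, filled where the adjusted p over all genes is under 0.05. Points of Spry2 and Spry4 sit at -1.06 and -1.96 at 6 h, and Fgfr2, at 2.94, has the widest bar there.

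Courses were compared among the 10 genes by the root mean square distance between log2 CPM values (prior count 2), each centred on its own mean over the 6 libraries, in log2 units. Spred1 and Etv5 had the closest courses, at a distance of 0.12. The pair of phosphatases highest at 3 h, Dusp1 and Dusp6, stood at 0.23, and Etv4 and Etv5 at 0.22. Spry2 was nearer to Dusp6 (0.37) than to Spry4 (0.42). Fgfr2 and Spry4, which moved furthest in opposite directions, were farthest apart, at 2.33. These distances share libraries and scaling and are descriptions.

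The same distance named the genes with the most similar course to 3 of the 10, among about 5320 genes with a mean of at least 20 CPM. Nearest to Dusp6 were Sgk1, a kinase of the serum- and glucocorticoid-regulated family (distance 0.11), the pluripotency factor Sox2 (0.14) and B3galt6, a galactosyltransferase of glycosaminoglycan synthesis (0.14). The level of Sox2 was 2442 ± 226 CPM without the drug, 3904 ± 77.4 CPM after 3 h and 2358 ± 27.3 CPM after 6 h (SD, n = 2 each). Nearest to Spry4 were the neuronal tubulin Tubb3 (0.11), the constitutive chaperone Hspa8 (0.13) and the transcription factor Tcf15 (0.17). Hspa8 stood at 1249 ± 43.9, 967 ± 91.1 and 311 ± 11.3 CPM in the same order, and Tcf15 at 136 ± 9.83, 91.0 ± 8.20 and 28.6 ± 4.40 CPM. No gene searched came as close to Fgfr2, whose control libraries stood at 0.741 and 5.74 CPM. Genes with a mean under 20 CPM were not searched. Nearest to Fgfr2 were the transcriptional corepressor Runx1t1 (0.67), the SOX-family factor Sox21 (0.81) and Dact1, a modulator of WNT signalling (0.86). Runx1t1 was at 5.35 ± 2.64 CPM without the drug, 23.5 ± 4.75 CPM after 3 h and 96.1 ± 35.6 CPM after 6 h (SD, n = 2 each).

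Outside the 10 genes, 110 further genes of the FGF-RAS-ERK pathway were listed by role, of which 105 had a row and 96 passed the filter. At 3 h, 7 of the 96 were called higher and 0 lower, beside 3.6% and 1.3% of all tested genes. At 6 h, 10 were called higher and 20 lower, beside 14.8% and 14.3%, and from 3 h to 6 h 0 were called higher and 11 lower, beside 0.455% and 1.18%. The same shares of all tested genes stand behind the counts by role that follow, and no role was tested against them. Their median log2 fold change was 0.08 at 3 h, -0.03 at 6 h and -0.13 between the times, beside medians of 0.02, 0.04 and 0.01 over all tested genes. Adjusted p-values for named genes are from edgeR's quasi-likelihood test. The list and the naming rule were chosen with earlier results of these data known. The rule in part takes the smallest adjusted p-values at 6 h, so those printed are descriptions and not independent tests.

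Of the 12 ligands listed, 7 were tested, and 2 were called lower at 6 h. Fgf4, the ligand that embryonic stem cells make for themselves, was measured at 192 and 183.5 CPM in control, 142 and 125 CPM at 3 h and 75.2 and 77.0 CPM at 6 h. Its libraries separated by group at each step. The log2 fold change was -0.49 ± 0.12 (SE) at 3 h (edgeR adjusted p = 0.0506) and -1.30 ± 0.12 (SE) at 6 h (edgeR adjusted p = 0.000309). The 6 h call was kept in all 16 alternatives, and the 3 h difference was called in 7 of the 16, DESeq2 and limma-voom among them. Fgf15, an endocrine FGF, fell from 17.7 ± 5.21 CPM to 4.69 ± 0.181 CPM (SD, n = 2) at 6 h (edgeR adjusted p = 0.00146). Fgf5, a marker of primed cells, did not pass the filter, with 15 counts in one 3 h library and at most 3 in any other.

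Of 8 receptors and co-receptors tested, the heparan sulphate proteoglycan Sdc1 was called lower at 6 h (-0.85, edgeR adjusted p = 0.0227) and none higher. Of 14 adaptors and RAS regulators, Shc1, an adaptor of receptor tyrosine kinases, was called lower at 6 h, from 116 ± 14.2 CPM to 61.7 ± 0.348 CPM (SD, n = 2; edgeR adjusted p = 0.00262). Frs3, a docking protein related to FRS2, was called higher (0.71, edgeR adjusted p = 0.0243). None of these genes was called at 3 h.

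Within the kinase cascade 5 of 15 tested genes were called lower at 6 h and 0 higher, beside 14.3% and 14.8% of all tested genes. Mknk2, a kinase that ERK activates and that phosphorylates eIF4E, showed the largest change, from 20.5 ± 5.02 CPM to 5.88 ± 0.572 CPM (SD, n = 2; -1.79, edgeR adjusted p = 0.00135). Mapk3, which encodes ERK1, changed by -0.71 (edgeR adjusted p = 0.0123), and Rps6ka1, a kinase downstream of ERK, by -0.61 (edgeR adjusted p = 0.0129). Map2k1, which encodes MEK1, changed by -0.66 (edgeR adjusted p = 0.02). The fifth was Map2k2, which encodes MEK2 and lies outside the naming rule (-0.50, edgeR adjusted p = 0.0343).

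Of 9 other inhibitors tested, 3 were called lower at 6 h and 0 higher. Spry1, a further Sprouty gene, was measured at 80.3 and 97.1 CPM in control, 88.6 and 84.5 CPM at 3 h and 52.8 and 60.6 CPM at 6 h. At 3 h it lay within the control range, and at 6 h below it (-0.64, edgeR adjusted p = 0.0119). Trib3, a pseudokinase induced by amino acid and endoplasmic reticulum stress, fell to 4.36 ± 0.662 CPM from 11.7 ± 0.644 CPM (SD, n = 2; edgeR adjusted p = 0.00325), and the RAF inhibitor Pebp1 changed by -0.40 (edgeR adjusted p = 0.0307). Spred2, at 2.45 ± 1.04 CPM in control and 2.84 ± 0.0494 CPM (SD, n = 2) at 6 h, was not called (0.18, edgeR adjusted p = 0.788). Il17rd, which encodes the FGF receptor inhibitor SEF, was not called either (-0.04, edgeR adjusted p = 0.908; 0.32 with library size alone).

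Among the other phosphatases 1 of 12 tested genes was called higher at 3 h and 4 at 6 h. Dusp8, a phosphatase that prefers JNK and p38, had 9 and 3 counts without the drug, 154 and 177 after 3 h and 284 and 249 after 6 h. In CPM these were 0.667 and 0.367, then 9.95 and 10.2, then 9.37 and 9.55. It stood high at both times, with a log2 fold change of 4.19 ± 0.34 (SE) at 3 h (edgeR adjusted p = 0.00043) and 4.10 ± 0.34 (SE) at 6 h (edgeR adjusted p = 0.000208). Dusp10, also a phosphatase of JNK and p38, rose from 3.07 ± 0.672 CPM to 11.1 ± 1.11 CPM (SD, n = 2) at 6 h (edgeR adjusted p = 0.00555), and Dusp14 by 0.90 (edgeR adjusted p = 0.022). Ptpn7, outside the naming rule, was the fourth called higher at 6 h, with 0 counts in both controls and 9 to 23 counts in the treated libraries. Another 2 were called lower at 6 h, Ppm1a (-0.56, edgeR adjusted p = 0.00725) and Dusp9, which is outside the naming rule (-0.46, edgeR adjusted p = 0.0446).

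Of 19 ERK-responsive genes tested, 6 were called higher at 3 h and 0 lower. The zinc-finger factor Egr1 (chromosome 18) stood at 2.71 ± 1.01 CPM (SD, n = 2) in control, 45.3 and 44.5 CPM at 3 h and 3.89 and 2.95 CPM at 6 h. It thus returned to near the control range, with a log2 fold change of 4.10 at 3 h (edgeR adjusted p = 0.000176), 0.40 at 6 h (edgeR adjusted p = 0.332) and -3.71 between the times (edgeR adjusted p = 0.00053). Fos, at 1.63 ± 0.631 CPM in control, was measured at 14.5 ± 0.281 CPM after 3 h and 3.80 ± 0.877 CPM (SD, n = 2) after 6 h. Jun did not come back as far. It was measured at 25.9 CPM in both control libraries, 214 and 293 CPM at 3 h and 139 and 141 CPM at 6 h, and was called higher at both times (edgeR adjusted p = 4.5e-05 and 7.5e-05). Ier2 rose from 85.3 ± 11.2 CPM to 271 ± 0.893 CPM at 3 h and was at 164 ± 17.8 CPM (SD, n = 2) at 6 h.

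At 6 h, 5 of these 19 genes were called higher and 5 lower. Plaur, the urokinase receptor and an ERK target in many cells, stood at 37.3 and 41.5 CPM in control, 27.2 and 19.0 CPM at 3 h and 6.44 and 6.33 CPM at 6 h. Its 6 h change was -2.62 (edgeR adjusted p = 0.000172), and the course of Plaur, like that of Spry4, went down at each step. Myc stood at 102 ± 13.3 CPM at 3 h beside 108 ± 16.5 CPM in control, was not called there, and was at 40.8 ± 11.2 CPM (SD, n = 2) at 6 h (edgeR adjusted p = 0.00269). From 3 h to 6 h, 7 of the 19 were called lower and 0 higher.

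Of 12 further ETS factors and repressors, 1 was called, lower at 6 h against control and against 3 h. Erf, an ETS repressor that ERK exports from the nucleus, stood at 30.7 and 34.2 CPM in control, 27.1 and 28.5 CPM at 3 h and 13.9 and 14.3 CPM at 6 h (-1.20, edgeR adjusted p = 0.00134). Cic, the repressor of Etv4 and Etv5, was at 40.5 ± 4.96 CPM without the drug, 44.4 ± 19.0 CPM after 3 h and 36.3 ± 6.85 CPM (SD, n = 2) after 6 h, and was not called (-0.15 at 6 h, 0.21 with library size alone; edgeR adjusted p = 0.712).

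Some of these 6 h calls against control were lost when 1 library was left out. Leaving out 6 h replicate 2 ended those of Mapk3 (-0.54), Rps6ka1 (-0.49) and Ppm1a (-0.51), and leaving out 6 h replicate 1 that of Spry1 (-0.55). Those of Sdc1 (-0.95 and -0.76), Map2k1 (-0.66 each), Frs3 (0.55 and 0.85), Dusp14 (0.89 and 0.91), Pebp1 (-0.44 and -0.36) and Fos (1.01 and 1.49) were lost without either 6 h library. Without control replicate 1 the calls of Frs3 (0.54), Dusp14 (0.70), Pebp1 (-0.31) and Fos (0.87) were lost, without control replicate 2 that of Map2k1 (-0.45), and without either 3 h library those of Pebp1 (-0.40 each) and Fos (1.27 each). Scaling by library size alone ended the calls of Sdc1 (-0.50), Mapk3 (-0.35), Rps6ka1 (-0.26), Map2k1 (-0.30), Spry1 (-0.29), Pebp1 (-0.042) and Ppm1a (-0.21), limma-voom ended that of Fos (1.33), and a fit to only the libraries compared ended those of Fos (1.26) and Pebp1 (-0.40). The 6 h calls against control of Fgf4, Fgf15, Shc1, Mknk2, Trib3 and Dusp8 were kept in all 16 alternatives. So were those of Dusp10, Jun, Ier2, Myc, Plaur and Erf. Calls from 3 h to 6 h were lost in 4 of the 16 for Fgf4, Mknk2, Trib3, Myc, Erf and Fos. They were lost in 5 for Jun and Ier2 and in 3 for Plaur, and that of Egr1 was kept in all 16.

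**Figure D3:**
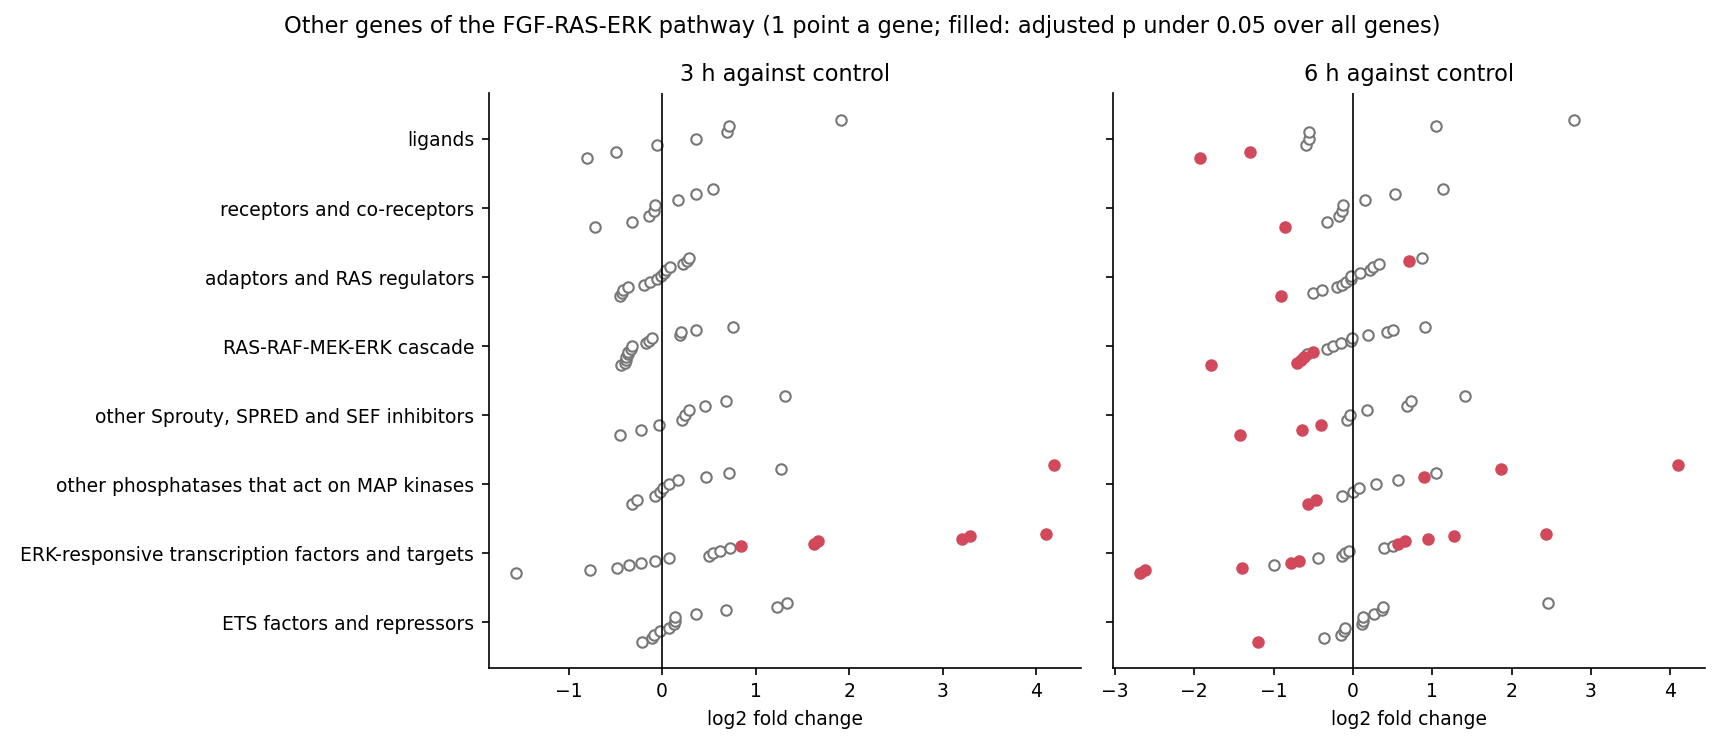
Log2 fold change (x axis) of the other pathway genes tested, 1 point a gene, by role (y axis), at 3 h and at 6 h against control, filled where the edgeR adjusted p over all genes is under 0.05. Genes with at most 3 counts in both control libraries, Ptpn7 among them, are not drawn. Filled points at 3 h are 1 phosphatase (Dusp8) and 6 ERK-responsive genes, and at 6 h filled points lie on both sides.

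The 3′ untranslated regions of the 10 genes were searched for the AU-rich pentamer ATTTA, a letter pattern known from short-lived transcripts, on the sense strand of the longest region annotated in GENCODE M21. The pentamer was chosen after the levels had been seen. Of the 10 genes, 9 held at least 1, as did 70% of the 11566 tested genes with such a region, and their median density was 2.14 per kb beside 1.30. Dusp1 had the densest region, with 4 in 690 bases (5.80 per kb, above 95.9% of tested genes), followed by Fgfr2 with 7 in 1508 bases (4.64 per kb). Spred1 had the most, 12 in 4330 bases. Etv4 had none in 624 bases, and Dusp6, whose course resembled that of Dusp1, had 1 in 1190 bases (0.840 per kb, above 39.1% of tested genes). Spred1 and Etv5, the pair with the closest courses, had 2.77 and 2.31 per kb.

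A 30-base window around a pentamer is shown for genes that were highest at 3 h (Dusp1, Dusp6, Spry2) and for a gene that was highest at 6 h (Fgfr2). Another is shown for Spred1, called only with DESeq2 and with no filter. Each window is the 30-base stretch of its region with the most pentamers, so the likeness of their letters follows from that choice. The part of the pentamer in these courses was not tested. Pentamers are in capitals. In GRCm38 the windows are chr17:26506156-26506185 (minus strand), chr10:99267420-99267449 (plus), chr14:105892091-105892120 (minus), chr7:130163786-130163815 (minus) and chr2:117179570-117179599 (plus), in the order of the lines:
Dusp1: gctggtccttATTTATTTAacacccccctc
Dusp6: ttttgagctggaATTTAttataagaatgta
Spry2: agtgtaaagaatATTTAtttgaagttttat
Fgfr2: acgtgtgtaaagATTTAtacagttggaaac
Spred1: taagaaagcATTTAtATTTAtatgacagct
In the Dusp1 window 2 pentamers overlap by 1 base. Dusp1 was the 1 gene of the 10 that held the longer AU-rich nonamer, TTATTTA followed by 2 bases that are each A or T, which 17.7% of tested genes hold.

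**Figure D4:**
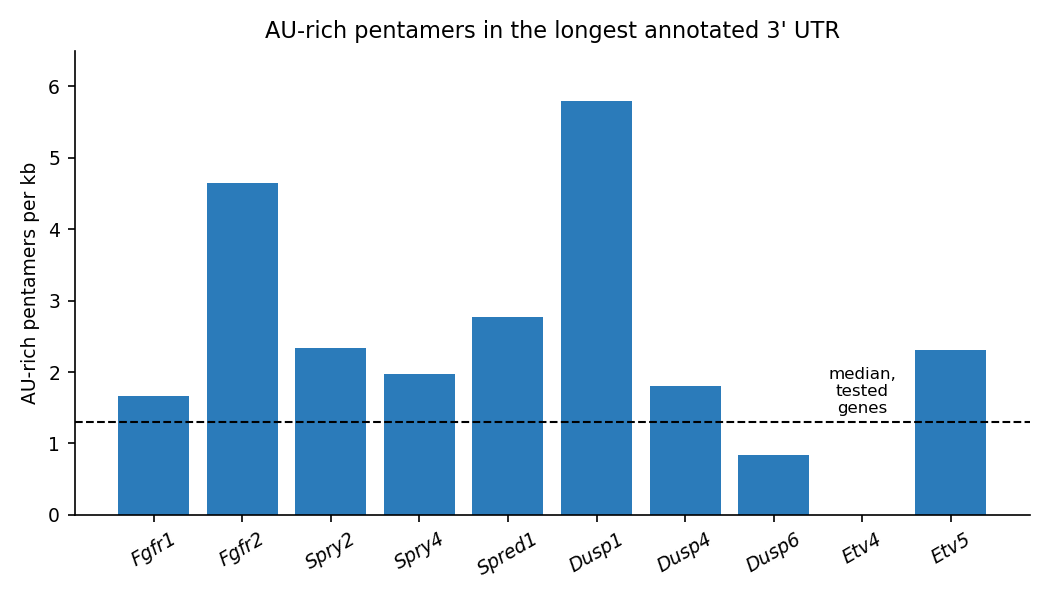
AU-rich pentamers per kb (y axis, from 0) in the longest annotated 3′ untranslated region of each gene (bars), with the median of 1.30 over the 11566 tested genes that have such a region (dashed line). Dusp1 and Fgfr2 stand highest, at 5.80 and 4.64 per kb, and Etv4 is at 0.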

How the data were processed

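Polyadenylated RNA for 6 libraries, 2 each of control, 3 h and 6 h, was extracted with TRIzol, barcoded per sample and sequenced as a pool, per the labels' protocols. The authors' deposited files hold raw counts, each file 1 library and 17485 gene rows, with 0 missing, negative or repeated entries. The genome build was mm10 per the submitters' processing notes. Aligner, counter, annotation, strand use and treatment of molecular identifiers are not given in the sources used here. The series title calls the data bulk, its design text mentions single cells, and each file was treated as 1 bulk library.

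Genes were kept by edgeR's filterByExpr (minimum count 10, minimum total 15), which left 12755. Library sizes were corrected by edgeR's TMM method (30% trim on M and 5% on A) and counts were fitted with edgeR 4.0.16 in R 4.3.3 by quasi-likelihood, as 3 group means over the 6 libraries, which leaves 3 residual degrees of freedom, without a replicate block. P-values were two-sided and adjusted by Benjamini-Hochberg over all tested genes. Standard errors are the log2 fold change over the square root of F. The procedure was tested on simulated data. Levels are TMM-scaled CPM, and since gene lengths did not enter, levels of different genes are not strictly comparable. This limits the marker sums and the naming of the highest marker of a list.

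Alternatives were other scalings, other filters, limma-voom (limma 3.58.1), DESeq2 1.42.0, the replicate number as a block, a fit to the compared libraries alone, removal of mitochondrial counts and leaving out each library. Replicate libraries differed beyond sampling noise in every group (chi-square per degree of freedom 18.7 to 27.8). All 10 genes are named. Of the pathway genes, at most 4 per role are named, those called with the smallest adjusted p at 6 h, plus a fixed set, of which 1 gene is not reported here. The members, lists and rules were chosen with earlier results of these data known.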

Additional observations from a re-analysis of the deposited data

Results flagged for a closer look

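For 4 of the 10 genes the response at 6 h differed from that at 3 h in the direct comparison of the treated libraries. The log2 fold change from 3 h to 6 h was -1.60 for Spry2 and -1.68 for Spry4. It was -0.83 for Dusp1 and -0.99 for Dusp6. Since these genes were chosen with results of the same libraries known, the differences are descriptions, and 1.18% of all tested genes were called lower in that comparison. The calls of Spry2 and Spry4 were kept in all 16 alternatives. That of Dusp1 was lost in 6 of them, the replicate block and library size alone included, and that of Dusp6 in 4. No group has enough libraries for a single library to be examined as an outlier.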

How the results depend on the processing

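The 6 h calls of Spry2 and Spry4 were kept under all 16 alternatives. With 2 libraries a group, leaving out 1 library moved the other counts. The 10 genes gave 0 to 3 calls at 3 h (2 with all libraries, and 4 with no filter on low counts), 2 to 5 at 6 h (6 with all) and 2 to 5 between the times (4 with all). The 3 h count was 0 without either 3 h library. For the 96 other pathway genes the ranges were 6 to 10 at 3 h (7 with all), 13 to 29 at 6 h (30) and 2 to 18 between the times (11). At 3 h they gave 14 calls with library size alone, 21 with no filter and 13 with DESeq2. Between the times they gave 20 with no filter and 18 each with limma-voom, DESeq2 and the compared libraries alone. Over all genes the 625 calls at 3 h became 1373 with library size alone, 1816 with no filter, 1437 with DESeq2 and 236 with the compared libraries alone, and 97 to 1031 when a library was left out. The 3703 calls at 6 h became 1273 to 3628 when a library was left out. The 209 calls between the times became 1063 with no filter, 508 with limma-voom, 667 with DESeq2, 571 with the compared libraries alone and 12 to 596 when a library was left out. The cause of these shifts was not tested.

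Scaling by library size alone moved the median log2 fold change of all genes to 0.25 at 3 h, 0.40 at 6 h and 0.14 between the times. Higher genes then made up 95.9%, 88.2% and 56.5% of the calls, beside 73.4%, 50.8% and 27.8% with TMM. Directions that turned under it belonged to values that were not called: Fgfr1 (0.073 at 3 h, 0.095 at 6 h, 0.022 between the times), Spred1 (0.16), Etv5 (0.14), Sdc1 (0.14), Spry1 (0.19), Pebp1 (0.0023), Myc (0.15) and Erf (0.0077) at 3 h, Dusp6 (0.12), Il17rd (0.32) and Cic (0.21) at 6 h, and Dusp8 (0.036) between the times. With single libraries left out, values that were not called crossed 0 at 3 h for Fgfr1 (-0.31 to 0.0049), Spred1 (-0.22 to 0.069), Etv5 (-0.22 to 0.066), Spry1 (-0.17 to 0.11), Dusp14 (-0.12 to 0.27), Myc (-0.22 to 0.088) and Cic (-0.38 to 0.51). At 6 h they did so for Il17rd (-0.25 to 0.24), Spred2 (-0.16 to 0.73) and Cic (-0.36 to 0.028). Between the times they did so for Fgfr1 (-0.27 to 0.041), Dusp4 (-0.068 to 0.30), Spred2 (-0.54 to 0.039) and Cic (-0.67 to 0.23).

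Libraries with the same replicate number did not deviate together (correlations of 0.09, -0.02 and 0.02), so the numbers were not taken as pairs. With the replicate block the 10 genes gave 2, 6 and 3 calls at 3 h, at 6 h and between the times, the other pathway genes 7, 31 and 10, and all genes 426, 3550 and 126. Under the block the call lost among the 10 was that of Dusp1 between the times. Counts were low for Fgfr2 and Dusp4, with 10 to 47 in the control libraries.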
